A study of Mus musculus with 2 samples.

Results

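The loci of 6 genes that carry the RANK and calcium signal of osteoclast formation were examined in a DNase-seq study of RAW264 cells, a mouse macrophage-like line. The genes were Tnfrsf11a, Traf6, Tyrobp, Fcer1g, Syk and Plcg2. Members were the peaks of 2 deposited lists that overlapped 1 of 6 fixed windows, given on genome build mm9 and not checked here against gene positions of that build, of 100 to 240 kb and 0.9 Mb in all. There were 39 of 29939 peaks: 20 of 13492 in the list from untreated cells and 19 of 16447 in the list from cells given GST-RANKL, the cytokine that starts osteoclast formation, at 234 ng/ml for 24 hours. Each condition was 1 library of the same line, taken at the same labelled range of passages. In DNase-seq, open chromatin is cut by DNase I and the released fragments are sequenced, so a peak marks accessible DNA and does not measure transcription. No value below has a replicate error, no test over samples was possible, and differences describe these 2 libraries.

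RANK, the protein of Tnfrsf11a, is the receptor for RANKL on osteoclast precursors and recruits the ubiquitin ligase TRAF6, which passes the signal to NF-kappaB and MAP kinases. A costimulatory signal runs in parallel through DAP12 (Tyrobp) and the Fc receptor gamma chain (Fcer1g), small membrane adaptors with an immunoreceptor tyrosine-based activation motif (ITAM). Phosphorylated ITAMs bind the kinase SYK, and PLCgamma2 (Plcg2) acts downstream of it. Its activity leads to a release of calcium that activates calcineurin and the transcription factor NFATc1. The adaptors, SYK and PLCgamma2 also serve Fc and other surface receptors in macrophages, the state from which RAW264 cells start.

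RefSeq promoter sequences on GRCm38.p6 were matched by symbol for 5 of the 6 genes, with 6 start sites in all. Tyrobp was not among them. The 250 bases before each start site were read. They are shown as background on the genes' own promoters, because the peaks are on mm9, coordinates were not converted, and whether a peak covers a promoter was not determined. The stretches of Tnfrsf11a and Traf6 are shown because most of the few peaks in these windows were unshared. Among peaks of similar score in the same whole list, 44.1 to 69.1% were unshared too. That of Fcer1g, where each list also had an unshared peak, is shown because its number of CG dinucleotides was near the median of all entries. Capitals mark the CG dinucleotides, which number 31 at Tnfrsf11a, 13 at Traf6 and 5 at Fcer1g. The median over 32851 RefSeq promoter entries was 6. The stretches shown lie on GRCm38.p6 at chr1:105780473-105780722 (plus strand), chr2:101678170-101678419 (plus strand) and chr1:171234350-171234599 (minus strand).
Tnfrsf11a: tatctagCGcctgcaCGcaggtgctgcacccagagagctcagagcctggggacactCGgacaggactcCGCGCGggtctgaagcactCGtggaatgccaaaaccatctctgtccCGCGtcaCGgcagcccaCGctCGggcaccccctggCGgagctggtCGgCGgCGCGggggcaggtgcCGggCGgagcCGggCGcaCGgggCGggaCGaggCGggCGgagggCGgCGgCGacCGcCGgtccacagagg
Traf6: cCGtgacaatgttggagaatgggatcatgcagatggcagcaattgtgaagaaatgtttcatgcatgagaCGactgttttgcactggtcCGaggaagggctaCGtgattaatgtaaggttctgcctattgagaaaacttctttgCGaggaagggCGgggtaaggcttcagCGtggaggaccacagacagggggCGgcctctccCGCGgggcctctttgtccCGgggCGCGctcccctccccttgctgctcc
Fcer1g: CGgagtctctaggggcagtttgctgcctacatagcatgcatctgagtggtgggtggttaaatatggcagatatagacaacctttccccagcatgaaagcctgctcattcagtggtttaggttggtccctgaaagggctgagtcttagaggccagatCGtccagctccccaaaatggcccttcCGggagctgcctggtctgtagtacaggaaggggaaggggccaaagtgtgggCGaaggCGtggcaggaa
Of all entries, 5.19% held at least as many CG dinucleotides as Tnfrsf11a, 31.5% at least as many as Traf6 and 55.6% at least as many as Fcer1g. The upstream start site of Syk had 27 and the downstream one 2, and Plcg2, where all peaks were shared, had 17. A relation between the number of CG dinucleotides and sharing was not tested.

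Those 6 stretches were searched on both strands for 4 motifs of factors that act in macrophages or osteoclasts, chosen with the sequences in view. GAGGAAGT, bound by PU.1, TGANTCA, bound by AP-1, and TGGAAA, bound by NFAT, were each in 0 of the 6. Over all entries they were in 2.44%, 6.75% and 18.6%. CACGTG, the E-box that MITF and other factors bind, was in 1 of the 6, at Plcg2, and in 6.02% of all entries. It starts 20 bases before the start site (chr8:117498025-117498274, plus strand, GRCm38.p6) and is in capitals below, which shows the only match.
Plcg2: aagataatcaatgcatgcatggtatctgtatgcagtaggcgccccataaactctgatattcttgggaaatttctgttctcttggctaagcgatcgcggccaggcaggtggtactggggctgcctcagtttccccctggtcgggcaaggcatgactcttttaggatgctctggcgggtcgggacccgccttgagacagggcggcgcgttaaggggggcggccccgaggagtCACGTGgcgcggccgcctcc
A match is a string of letters only, and other forms of the sites that these factors bind were not searched.

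Sites were called shared when peaks of both lists overlapped by at least 1 bp. The 39 peaks fell at 23 separate sites, of which 14 were shared, 6 were in the list without RANKL only and 3 in the list with RANKL only. Every window held a peak without RANKL, and 5 of 6 held a peak with RANKL, the exception being Traf6. Of the 20 window peaks without RANKL, 6 (30.0%) overlapped no RANKL peak, beside 39.3% of that whole list. The corresponding 3 of 19 with RANKL (15.8%) stood beside 34.3% of the RANKL list. The shared share was thus 70.0% (exact 95% binomial interval 45.7 to 88.1%) without RANKL and 84.2% (60.4 to 96.6%) with RANKL. Both intervals, which cover counting error only, take in the shares of the whole lists, 60.7% and 65.7%.

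**Figure D1:**
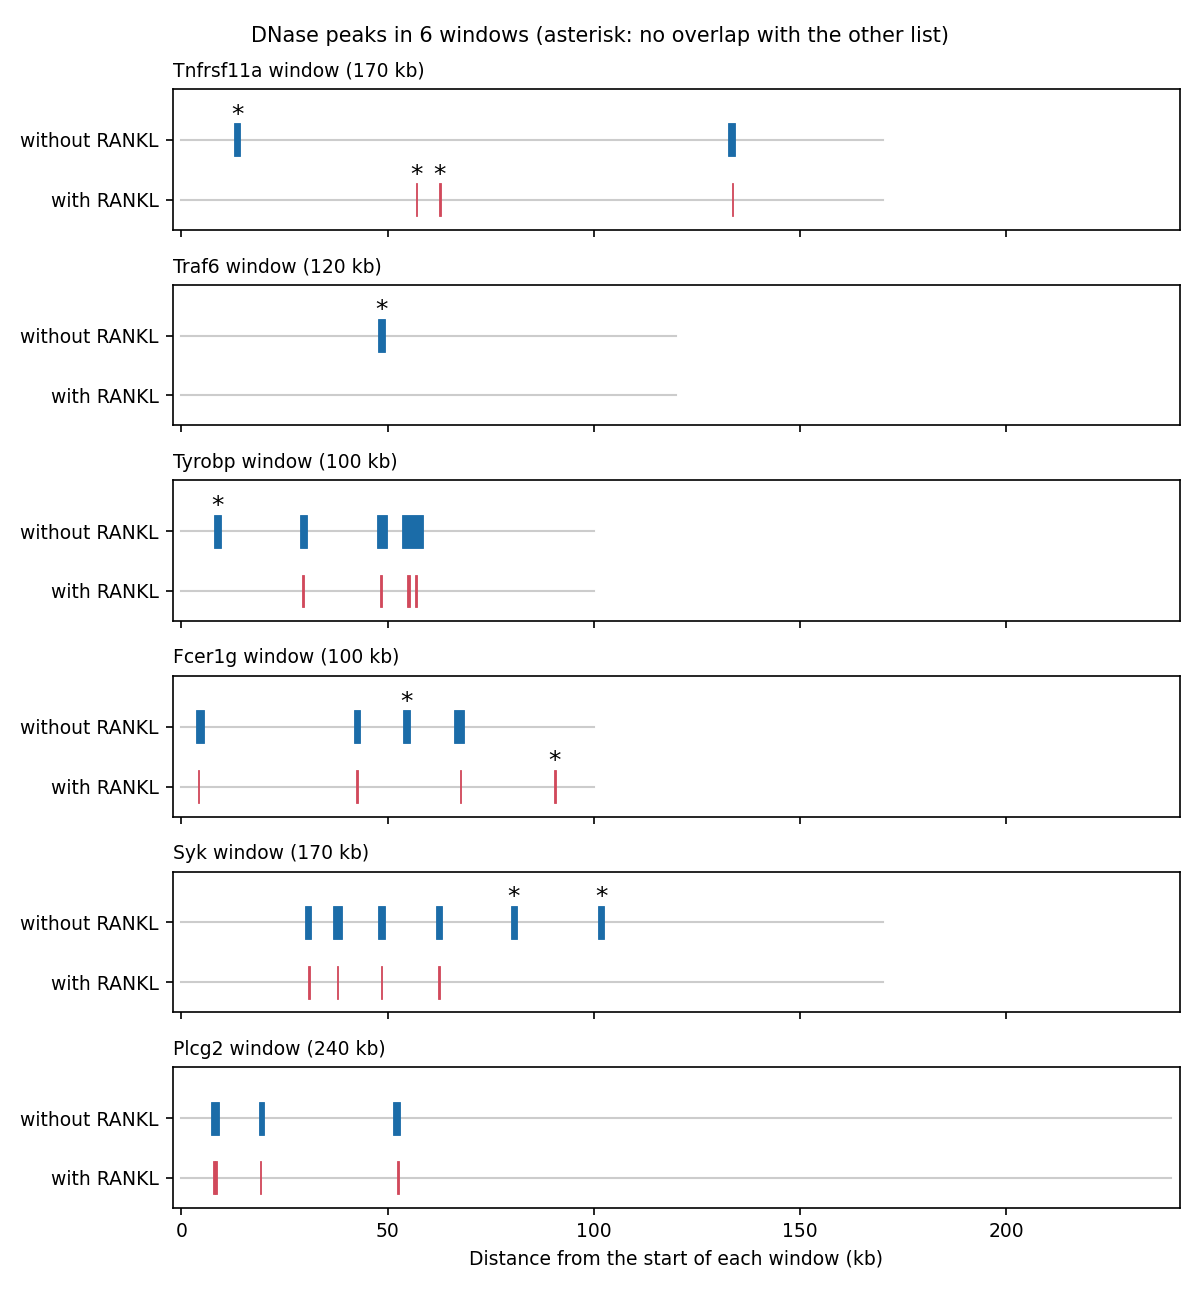
Peaks in the 6 windows, with the distance from each window's start in kb on the horizontal axis, the list without RANKL in the upper row (blue) and the list with RANKL in the lower row (red); grey lines show the window and peaks are drawn to scale but at least 0.35 kb wide. An asterisk marks the 6 and 3 peaks without overlap in the other list; the 2 RANKL peaks inside the first broad Plcg2 peak are too close to be seen apart.

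The receptor locus, Tnfrsf11a, was the one window in which most RANKL peaks lacked a counterpart. The authors' score per peak, whose definition is not given in the sources used here, was read only as a rank within its own list, where a rank of 20% means that 20% of the list scored as high or higher. The list without RANKL had a peak at chr1:107642868-107644344 (score 59.9, rank 86.5%) and a second at chr1:107762479-107764233 (score 76.5, rank 69.0%). With RANKL there were 3 peaks, at chr1:107686901-107687213 (score 61.3, rank 66.1%), chr1:107692532-107692657 (score 50.7, rank 97.2%) and chr1:107763370-107763720 (score 104, rank 30.8%). Only the last of these lay on a broad peak, and it was the highest-ranked peak of the window in either list.

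The 2 RANKL-only peaks of Tnfrsf11a lay 5.32 kb apart and 42.6 and 48.2 kb from the nearest peak without RANKL. One was close to the lowest score of the list, 50.0. Peaks of such scores often lacked a counterpart anywhere in the genome: each list was divided into 10 equal classes by score, and 47.7% of the RANKL peaks in the class of the first, and 65.8% in the class of the second, were RANKL-only. The broad peak without a RANKL counterpart, 42.6 kb before them, sat in a score class where 69.1% were unshared. On GRCm38 a stretch of 170 kb centred on Tnfrsf11a takes in 1 other protein-coding gene, Relch, and on mm9 the genes under these peaks were not identified here.

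Traf6, which encodes the adaptor that RANK recruits, had the fewest peaks. Its window held 1 peak without RANKL, at chr2:101517767-101519281 (1515 bp, score 99.2, rank 51.2%), and 0 peaks with RANKL. In the score class of that peak, 44.1% of the list was unshared. Of the 6487 windows of 120 kb that held at least 1 peak without RANKL, when chromosomes 1 to 19 and X were tiled without overlap, 16.2% likewise held 0 with RANKL. The nearest RANKL peak lay 48.7 kb from the broad one and 0.92 kb outside the window, at chr2:101468922-101469080 (score 53.4, rank 85.8%), and it had no counterpart either. Read depth is unknown, so a site missing from a list is not shown to be closed. On GRCm38, Rag1, Rag2 and Prr5l share a stretch of this length with Traf6.

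The adaptor locus Tyrobp ranked highest among the 6 in the RANKL list. Its RANKL peaks scored 131 (rank 22.2%), 139 (20.1%), 134 (21.3%) and 104 (31.0%) in order of position, so all 4 were in the upper 50% of the list. In the other 5 windows together, 4 of 15 RANKL peaks were in the upper 50%, 2 of them at Fcer1g, 1 at Tnfrsf11a and 1 at Syk. The broad peaks without RANKL scored 98.3 (rank 51.9%), 188 (15.2%), 163 (22.1%) and 126 (36.0%). The first of these, at chr7:31158001-31159537, had no RANKL peak within 19.6 kb, and the other 3 were shared.

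The shared Tyrobp sites lay at chr7:31178695-31180512, chr7:31197510-31199849 and chr7:31203562-31208671. The last was 5110 bp wide, the widest member, and 99.5% of the list without RANKL was narrower. It held 2 RANKL peaks, at chr7:31204767-31205342 and chr7:31206600-31207222, which were 576 and 623 bp wide and 1.26 kb apart. All 4 RANKL peaks of this window, at 292 to 623 bp, were wider than the median of their list, 233 bp. With 4 peaks in each list, the window of 100 kb was among the fuller ones. Of 25631 tiled windows of that length, 3.07% held at least 4 peaks without RANKL and 4.40% at least 4 with RANKL. Most tiled windows were empty: 72.1% held 0 peaks without and 69.5% held 0 with RANKL. They were not matched to the window for gene content. A GRCm38 stretch of the same length centred on Tyrobp takes in 5 other protein-coding genes, among them Hcst, which encodes the adaptor DAP10, and Nfkbid, which encodes a nuclear IkappaB protein. The peaks were not assigned to any of these.

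Fcer1g, the gene of the second ITAM adaptor, also had 4 peaks in each list, at 5 sites, the same counts per 100 kb as Tyrobp. It held the highest-ranked member without RANKL, a peak at chr1:173113637-173115496 with score 216 and rank 10.1%. The RANKL peak inside it, at chr1:173114000-173114172, scored 57.5 and ranked at 73.9%. At the next site, chr1:173151758-173153279, the order was the opposite: the broad peak scored 69.1 (rank 76.0%) and the RANKL peak 89.5 (rank 38.0%). The last shared site, chr1:173176202-173178586, scored 157 (rank 23.8%) without and 71.7 (rank 52.3%) with RANKL. Ranks from lists of different lengths are given side by side and are not a measure of change.

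Fcer1g had an unshared site in each list. The RANKL-only peak at chr1:173200361-173200666 scored 116 (rank 26.5%), the highest of the 3 in the windows, and in its score class 14.0% of the list was RANKL-only. It was 306 bp wide and lay 10.0 kb from the nearest broad peak, which starts 0.664 kb past the window's end at 173210665 and is itself shared. The peak found only without RANKL, at chr1:173163699-173165504, scored 102 (rank 49.4%) and was 11.0 kb away from any RANKL peak. In its score class, 36.7% were unshared. Around Fcer1g the annotation is dense, with 9 other protein-coding genes in the GRCm38 stretch of this length. The sites were not assigned to any of them.

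Syk, the kinase that binds phosphorylated ITAMs, had the most sites, 6 without RANKL and 4 with RANKL. Of tiled windows of 170 kb, 2.64% held at least 6 peaks without RANKL and 10.0% at least 4 with RANKL. Of the same tiled windows, 64.2% held 0 peaks without and 59.5% held 0 with RANKL. The 4 shared sites came first along the chromosome, and the 2 sites found only without RANKL came last. Those shared were at chr13:52660101-52661440, chr13:52666730-52668943, chr13:52677636-52679417 and chr13:52691719-52693197. Without RANKL they scored 72.7, 97.3, 95.7 and 120, at ranks of 72.6, 52.6, 53.6 and 39.0%. The RANKL peaks inside them scored 62.2, 65.4, 81.7 and 57.2, at ranks of 64.7, 60.0, 43.1 and 74.7%.

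The fourth Syk site had the highest score of the window without RANKL and the lowest with RANKL. At the Syk site from 52677636, the centres of the broad and the narrow peak were 13.5 bp apart, the closest of all pairs. The unshared sites were chr13:52709848-52711311 (score 50.6, rank 99.0%) and chr13:52731040-52732536 (score 104, rank 48.0%), 17.4 and 38.5 kb from the last RANKL peak. The score classes that held them were 74.5 and 36.7% unshared. After the last peak, both lists had none for the remaining 67.5 kb of the window.

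At Plcg2, the gene of the phospholipase that acts upstream of calcium release, all peaks were shared, 3 without and 4 with RANKL. The broad peaks were at chr8:119977175-119979192 (score 144, rank 28.5%), chr8:119988733-119989942 (score 51.6, rank 97.5%) and chr8:120021438-120022978 (score 78.8, rank 66.9%). The first held 2 RANKL peaks, 0.123 kb apart, with scores of 67.1 and 60.6 (ranks 57.5 and 67.4%). The RANKL peaks in the other broad peaks scored 71.5 (rank 52.6%) and 56.8 (rank 75.7%). No RANKL peak of this window was in the upper 50% of its list. The second site scored near the floor without RANKL, in a score class where 74.5% lacked a counterpart, yet it had one. From 120022979 to the window's end, 187 kb, neither list had a peak. On GRCm38 a stretch of 240 kb centred on Plcg2 also takes in parts of or all of Cmip and Sdr42e1.

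**Figure D2:**
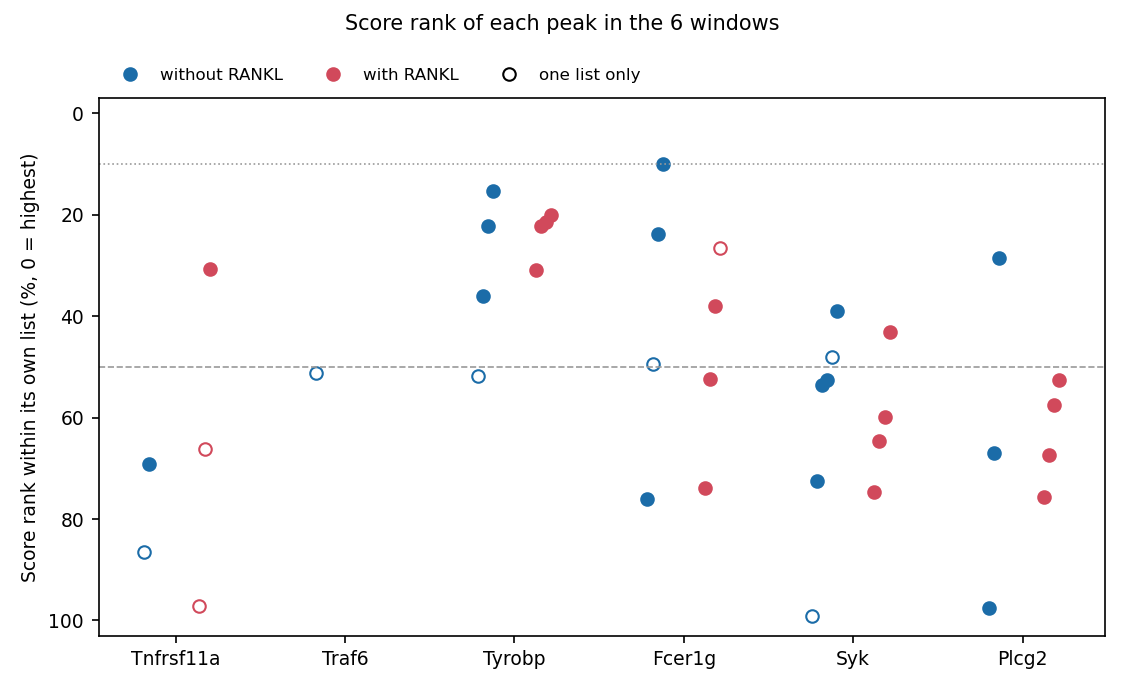
Score rank of each of the 39 window peaks within its own list (vertical axis, percent, 0 is the highest score) by locus; blue points are peaks without RANKL, red points peaks with RANKL, open points peaks of one list only, and lines mark ranks of 10% (dotted) and 50% (dashed). All Tyrobp RANKL peaks are within the highest 31.0% of the list, all Plcg2 RANKL peaks are in its lower 50%, and no peak of any locus is in the highest 10%.

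Across the 6 loci the sites were of middling score. The median score was 98.8 without RANKL, beside 101 for the whole list, and 71.5 with RANKL, beside 73.9. The highest 10% of each list held 0 of the 20 and 0 of the 19 members. The nearest was the first Fcer1g peak, ranked 1360, with a score of 216.39 where the highest 10% began at 217.11. The lowest 10% held 2 peaks without and 1 with RANKL, and the upper 50% held 9 of 20 and 8 of 19. By density the windows of Tyrobp, Fcer1g and Syk stood above those of Tnfrsf11a and Plcg2: at least as many peaks were found in 22.4 and 16.0% of tiled windows (without and with RANKL) for Tnfrsf11a, and in 19.6 and 15.7% for Plcg2.

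The unshared peaks without RANKL all lay in the lower 6 of the 10 score classes, and the 7 members above these classes were shared. Without RANKL they scored 59.9 at Tnfrsf11a, 99.2 at Traf6, 98.3 at Tyrobp, 102 at Fcer1g, and 50.6 and 104 at Syk. Their median, 98.8, was close to the 109 of the 14 shared window peaks, whereas in the whole list unshared peaks had a median of 73.2 and shared ones 132. With RANKL, the unshared peaks scored 61.3 and 50.7 at Tnfrsf11a and 116 at Fcer1g, beside a median of 71.6 for the shared 16. If each member had the unshared share of its own score class, the counts would be 8.18 without and 6.63 with RANKL, where 6 and 3 were found. Gaps from the unshared peaks to the other list went from 11.0 to 48.7 kb without RANKL (median 29.1 kb, beside 25.2 kb in the whole list) and from 10.0 to 48.2 kb with RANKL (median 42.6 kb, beside 34.1 kb).

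**Figure D3:**
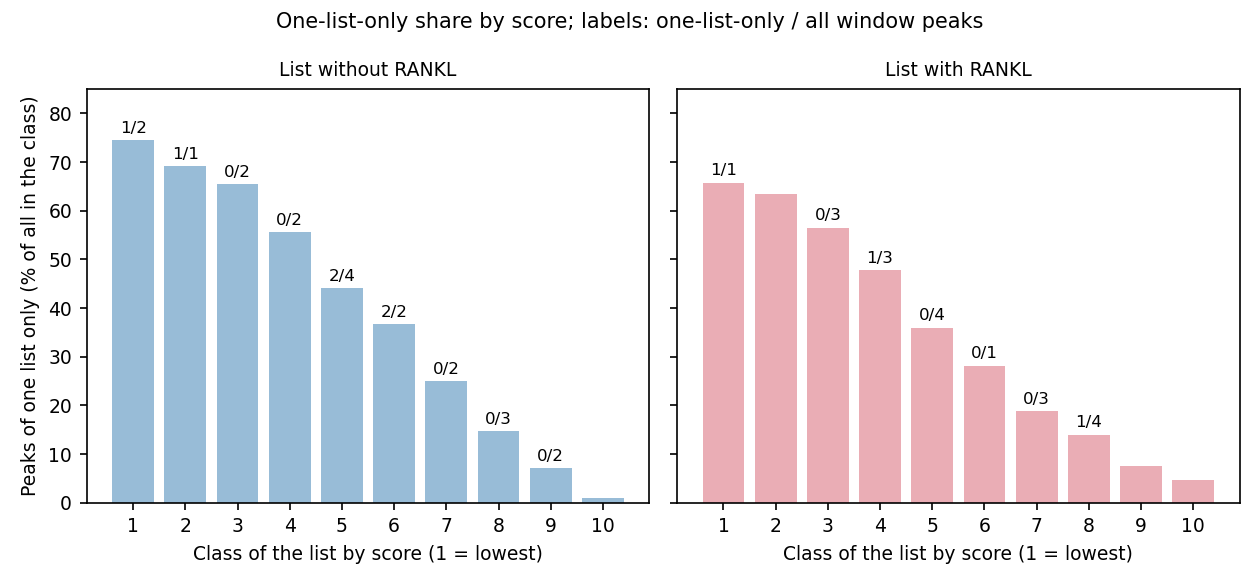
Share of peaks without overlap in the other list (vertical axis, percent of all peaks in the class) for 10 equal classes of each list by score (horizontal axis, 1 is lowest), without RANKL at left and with RANKL at right; labels give the unshared and all window peaks in that class. The share falls from 74.5 to 0.964% and from 65.8 to 4.68%, and the unshared window peaks lie in classes 1, 2, 5 and 6 without RANKL and 1, 4 and 8 with RANKL.

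At the shared sites the RANKL peak was always the narrower one and lay wholly inside the broad peak, in 16 of 16 overlapping pairs. This was the rule for the 2 lists: of sites with a single peak in each, 12 of 12 in the windows and 5914 of 5931 in all had the RANKL peak inside. Of the 14 shared broad peaks, 12 held 1 RANKL peak and 2 held 2 (14.3%, beside 27.5% of all 8186 shared broad peaks). The 12 single pairs had broad peaks 4.27 to 10.9 times as wide as the RANKL peak, with a median of 6.05, beside 5.76 over all 5931 such pairs. The median distance between centres was 168 bp, beside 153 bp. The largest ratios were at Fcer1g, 10.8 and 10.9, and the smallest at the Syk site from 52677636. The widths of the 2 lists differ throughout the genome, so neither these ratios nor the nesting are particular to the 6 loci.

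The paired peaks were also set side by side by score. Spearman's rho between them was 0.09 over the 12 single pairs and 0.56 over all 5931 pairs. It describes sites that share their 2 libraries. The score ranges differ: window peaks reached 216 without and 139 with RANKL, beside 3109 and 3187 in the whole lists. The windows held 0 peaks of the highest 10% of either list, and neither rho nor the shares below were adjusted for this. In 2 of the 12, both at Tyrobp, each peak was in the upper 50% of its list, beside 50.1% of all pairs. In 4 both were in the lower 50%, 2 at Syk and 2 at Plcg2, beside 17.8%. The broad peak alone was in the upper 50% in 3, of which 2 at Fcer1g and 1 at Syk, beside 13.0%. The RANKL peak alone was there in 3, at Tnfrsf11a, Fcer1g and Syk, beside 19.1%. With 12 pairs from 5 loci these shares are coarse, and they were not tested.

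**Figure D4:**
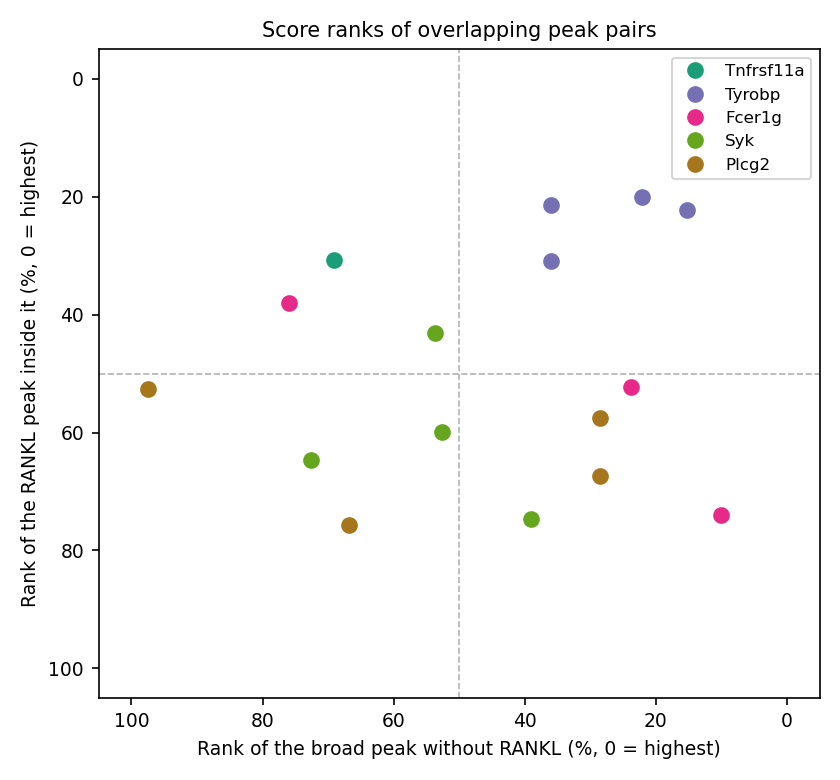
Score rank of each RANKL peak (vertical axis, percent of the RANKL list, 0 is highest) against that of the broad peak it lies in (horizontal axis, percent of the list without RANKL, 0 is highest), coloured by locus, for all 16 overlapping pairs; dashed lines mark 50%. The 4 Tyrobp pairs are together in the upper right, while Fcer1g pairs lie on both sides, from 10.1% without and 73.9% with RANKL to 76.0% without and 38.0% with RANKL.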

How the data were processed

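DNase-seq peaks of RAW264 cells were compared between 1 library without and 1 with RANKL. Per the submitters' processing notes, Bowtie2 2.0.0, MACS2 and build mm9 were used. The authors deposited 1 peak list per library with a score per peak, at least 50.0 in both. How the score is defined, the threshold and whether a control library was used are not stated in the sources, and depth is unknown. Peaks overlapping the 6 windows were classed by an overlap of at least 1 bp and ranked by score within their list. All peaks of each list were classed and ranked, and only window peaks are printed. Positions are 1-based. The overlap code was tested on 1200 simulated peaks, of which 1200 were classed correctly. Shares carry exact (Clopper-Pearson) 95% intervals for counting error, which treat peaks as independent. Values were computed in Python 3.11.15 with pandas 2.3.3, scipy 1.17.1 and numpy 2.4.6. Every window peak was to be accounted for, with the highest-scoring and the unshared peaks described singly. Windows, motifs and choices were made with earlier results of these data known. Other overlap rules, the upper 50% by score, merged peaks and other window bounds were tried. Genes of the same pathway outside the windows were not placed, since no mm9 annotation was used here, and RefSeq names on GRCm38.p6 served only to name neighbours.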

Additional observations from a re-analysis of the deposited data

How the results depend on the processing

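The 4 shares and counts were recomputed under 7 alternatives, 28 values in all. For 20 of these the count moved by at most 1.5 times, or the share kept inside its interval. A required overlap of 50% of both peaks left 0% shared in both lists, with 20 peaks without and 19 with RANKL unshared, as follows from the widths. In the upper 50% of each list by score, 33.3% of 9 peaks without and 50.0% of 8 with RANKL were shared. This cut left out the weaker partners of some peaks. Others had no partner at any score: those scoring 102 at Fcer1g and 104 at Syk without RANKL, and 116 at Fcer1g with RANKL. The cut parts pairs throughout the lists: of all 5931 single pairs, 13.0% had only the broad peak in the upper 50%. Another 19.1% had only the RANKL peak there, beside 25% and 25% of the 12 pairs in the windows. The share of the whole lists under this cut was not computed. Whether the lower shares are particular to these loci therefore cannot be told. Widening the windows by 50 kb on each side gave 10 unshared peaks of 30 without and 7 of 30 with RANKL. In the whole lists, 39.3% without and 34.3% with RANKL were unshared. The window counts rose as more peaks entered, while the shared shares, 66.7% without and 76.7% with RANKL, kept inside their intervals. Requiring 50% of the narrower peak, allowing 1 kb, merging peaks closer than 1 kb and narrowing the windows by 20 kb moved no value past these limits. No paired analysis was possible because each condition had 1 library, so no replicate could be left out. Unknown depth limits every statement about a site missing from one list.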
